A study of Mus musculus with 11 samples.

Results

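The comparison described here set EC4 cells that lacked both high MYC and ample methionine against EC4 cells that had both. EC4 is an established mouse liver cancer cell line, and each library holds polyadenylated RNA of that line. Libraries were chosen by their labels alone: 3 libraries labelled MYC low, with genotype MYC off, after 24 h at 10 µM methionine, and 2 libraries labelled MYC high, with genotype MYC on, at 200 µM. They are called both-low and both-high libraries below, and they make up 5 of the 11 libraries of the series. The other 6 had a single change, 3 of them MYC low at 200 µM and 3 of them MYC high at 10 µM, and served to find the genes that reached their extreme only in the both-low cells. All libraries come from 1 line in DMEM, whose usual methionine was 200 µM. The labels do not say how MYC was switched, nor that replicates came from separate cultures, so p-values reflect only how these libraries varied, possibly for technical reasons. Replicate 1 of MYC high at 200 µM was not analysed here.

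MYC is a transcription factor that raises the expression of genes for ribosome production, nucleotide synthesis and cell growth. Methionine is an essential amino acid that starts every protein and, as S-adenosylmethionine, gives methyl groups to DNA, RNA, proteins and small molecules. Cells short of amino acids commonly raise the factor ATF4, which drives genes of amino acid synthesis and uptake. Liver tumours driven by MYC, and the nucleolar RNA methyltransferase NOP2, are the subject named by the series title.

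The libraries held 10858936 to 13085689 reads on genes, and of 55416 genes listed the 12909 whose normalized count averaged 10 or more were tested. Of 7 defining hepatocyte markers, Alb, Cyp2e1 and Cps1 had 0 reads in all 11 libraries and the others at most 1.01 normalized counts, whereas, of 4 fetal liver markers, Afp stood between 78.0 and 366, Dlk1 at 2.29 at most, and Igf2 and Gpc3 at 0. The leukocyte gene Ptprc was at 0 in all libraries. Mouse Myc (ENSMUSG00000022346) stood at 2164 and 2014 normalized counts in the both-high and 320.0, 344 and 342 in the both-low libraries. It was 291, 366 and 350.3 in the libraries labelled MYC high at 10 µM, so at the lower methionine this transcript does not separate the MYC labels, and every MYC direction at 10 µM rests on the labels. A human MYC transgene, if present, would be counted only in part. Combined, Myc fell by 2.63 on the log2 scale (SE 0.070, limma adjusted p = 8.25e-29). Transcripts encoded by mitochondria took 0.854% ± 0.0216 of reads in the both-high (SD, n = 2) and 1.54% ± 0.0319 in the both-low libraries (SD, n = 3); the part of this shift in the results below was not tested.

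The combined change reached most of the transcriptome. In the both-low libraries 5297 genes were higher (41.0% of those tested) and 5109 were lower (39.6%) at a limma adjusted p under 0.05. Differences of at least 2-fold numbered 3799 (29.4%), 2178 higher (16.9%) and 1621 lower (12.6%), and those of at least 8-fold 248 higher and 62 lower. The adjusted p alone called 10406 genes (80.6%), and the libraries of the 2 groups did not overlap for 11140 genes (86.3%). The median log2 difference over all genes was 0.01, with 5th and 95th percentiles of −1.48 and 2.04. At 2-fold, MYC low at 200 µM alone had 1565 genes higher (12.1%) and 877 lower (6.79%) than the both-high libraries, and MYC high at 10 µM had 1672 higher (13.0%) and 1185 lower (9.18%); all 3 comparisons share the both-high libraries. The shares of 41.0% higher and 39.6% lower are the background for every list count below. Every log2 difference below is of normalized count plus 1, both-low minus both-high unless another pair is named, and in bulk RNA fewer cells expressing a gene and less of its RNA per cell cannot be told apart.

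Most genes with the largest rises were at low levels in the both-high cells. Tns1, which encodes the adhesion protein tensin, stood at 5.71 and 4.24 normalized counts in the both-high and 1266, 1349 and 1323 in the both-low libraries, a difference of 7.79 (SE 0.12, adjusted p = 4.06e-36). Cldn2, which encodes a pore-forming claudin of tight junctions, stood at 1.14 and 1.06 normalized counts in the both-high and 487, 432 and 463 in the both-low libraries, but the both-high value rests on 2 reads, and the ratio of pooled reads was 419 with an exact 95% counting interval of 116 to 3464. The actin-associated protein gene Synpo stood at 2.29 and 5.30 normalized counts in the both-high and 857, 882 and 785 in the both-low libraries (7.53). The rule that picked these genes requires that libraries of both groups lie apart, so their lack of overlap was fixed in advance. Further down the ranking came the surface antigen Ly6a (6.95), the matrix glycoprotein Thbs1 (6.59), Ly6c1 (6.41), complement C3 (5.83), the secreted galectin ligand Lgals3bp (5.60), the interferon-inducible Samd9l (5.14), the copper ferroxidase ceruloplasmin (Cp, 5.08) and Uba7, the activating enzyme for ISG15 (4.98). The noncoding Gm29233 (7.24) lies opposite Thbs1, and since the strand setting of the counting is not given in the sources used here, their reads cannot be told apart. Ly6a and Ly6c1 belong to a cluster of similar genes whose reads may have been split.

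Among genes with a mean of at least 100, Hrk and Snhg1 had the largest falls. Hrk, which encodes a BH3-only promoter of apoptosis, stood at 577 and 532 normalized counts in the both-high and 2.71, 5.69 and 7.94 in the both-low libraries (−6.52, SE 0.25, adjusted p = 1.26e-23). Snhg1, a host of small nucleolar RNAs, stood at 9592 and 9477 normalized counts in the both-high and 286, 266 and 256 in the both-low libraries (−5.14). As for the rises, the naming rule requires libraries apart, so the separation of both genes was fixed in advance. Snhg12 (−4.63) and Zfas1 (−4.51) fell too, both also hosts of small nucleolar RNAs, although Zfas1 overlaps Znfx1 on the opposite strand. Ciart, a repressor in the circadian clock, fell by 4.97, and the glycogen-binding Stbd1 (−4.47) and the transporter gene Slc35f2 (−4.04) fell nearly as far. Trib3, Chac1, Atf3 and Pycr1, known targets of ATF4, differed by −4.06, −3.96, −3.94 and −3.94. Ccdc24, which overlaps Slc6a9 on the opposite strand, fell by 4.01.

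**Figure D1:**
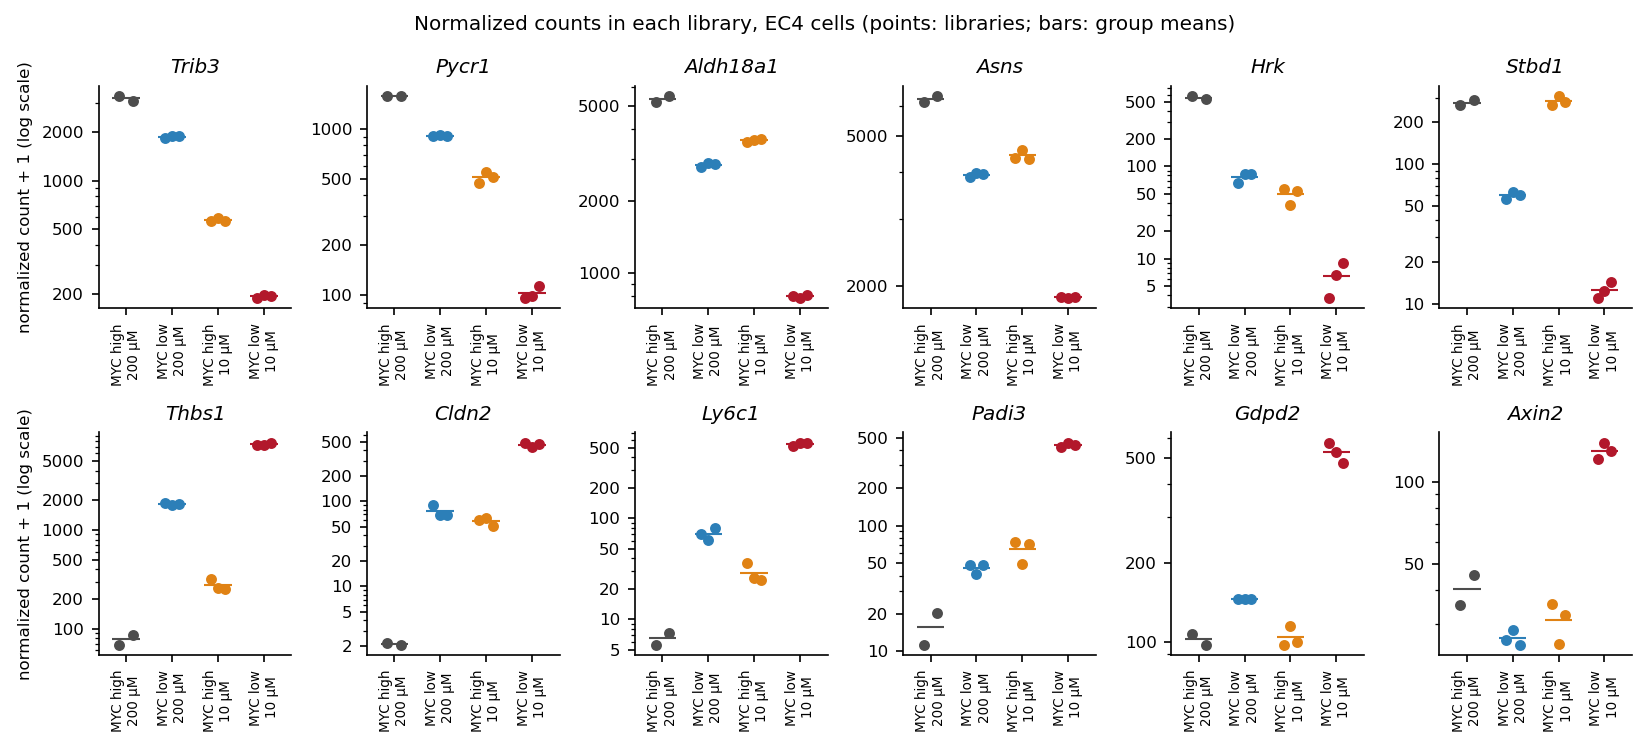
Normalized count plus 1 on a log axis for 12 genes, 1 point per library and a bar at each group mean. The both-low libraries lie below the 8 other libraries in the upper row and above them in the lower row; Trib3, for example, was at 186 to 196 in the both-low libraries.

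Genes of the ATF4 amino acid response were lower in all cases but 1. Of 37 members tested, 36 were lower and 1, Jdp2 (0.11), did not pass; 33 were lower by at least 2-fold, against 12.6% of all genes. The median member differed by −1.95, beside 0.01 for all genes. The medians against the both-high libraries were −0.76 with MYC low alone and −1.45 with 10 µM alone. All 37 were also lower in the both-low libraries than in MYC low libraries at 200 µM at an adjusted p under 0.05 (29.9% of all genes were), and for 26 the both-low libraries were the lowest of all 4 groups, against 12.3% of all genes.

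In the ATF4 list, 4 members that were lowest in the both-low cells by 2-fold carry, within the 250 bases before their RefSeq start site, the 8 letters TGATGNAA on either strand, a form of the element that ATF4 binds together with C/EBP proteins. They are shown because the ATF4 list had the lowest median of all lists. The sequences come from the RefSeq promoter table of build GRCm38.p6, an earlier build than that of the counts, and each is printed 5′ to 3′ on the gene's strand with the match in capitals. A match read as TTNCATCA is the same element on the other strand.
Asns, chr6:7693210-7693459, minus strand: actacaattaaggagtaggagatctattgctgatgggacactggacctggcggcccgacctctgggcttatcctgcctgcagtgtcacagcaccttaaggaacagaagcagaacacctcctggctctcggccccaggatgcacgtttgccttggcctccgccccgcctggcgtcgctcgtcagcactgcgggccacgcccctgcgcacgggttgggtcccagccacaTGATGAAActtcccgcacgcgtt
Pycr1, chr11:120643749-120643998, minus strand: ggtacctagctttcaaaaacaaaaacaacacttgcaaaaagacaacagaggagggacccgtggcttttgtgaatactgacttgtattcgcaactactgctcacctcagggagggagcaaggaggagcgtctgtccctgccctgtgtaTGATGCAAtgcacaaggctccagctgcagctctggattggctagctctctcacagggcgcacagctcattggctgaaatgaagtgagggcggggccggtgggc
Nupr1, chr7:126625471-126625720, minus strand: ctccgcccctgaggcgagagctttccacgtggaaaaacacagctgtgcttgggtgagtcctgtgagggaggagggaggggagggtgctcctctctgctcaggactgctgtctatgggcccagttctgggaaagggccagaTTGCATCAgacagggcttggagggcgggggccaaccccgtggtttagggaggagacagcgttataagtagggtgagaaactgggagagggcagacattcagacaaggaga
Pck2, chr14:55540016-55540265, plus strand: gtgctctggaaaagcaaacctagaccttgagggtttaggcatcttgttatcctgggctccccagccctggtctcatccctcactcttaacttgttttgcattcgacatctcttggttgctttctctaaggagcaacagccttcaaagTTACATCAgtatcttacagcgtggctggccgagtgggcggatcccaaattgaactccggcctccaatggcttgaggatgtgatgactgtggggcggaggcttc
The match begins 23 bases before the start in Asns, 103 in Pycr1 and Pck2 and 110 in Nupr1. Of the 37 members 33 had an entry and 9 held the letters. Among the 10 members lowest by 2-fold in the both-low cells, 9 had an entry and 4 held them. Jdp2, Atf3, Chac1 and Slc7a11 were among the members outside that extreme that held the letters. Over all 32851 entries 3.45% held them, and of the 9263 tested genes with an entry 2.33% did. A match is a description of letters, not a bound site.

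Atf4 itself stood at 5561 and 5714 normalized counts in the both-high and 2025, 2030.3 and 1959 in the both-low libraries, a difference of −1.49 (SE 0.039, adjusted p = 6.93e-29). Trib3, a pseudokinase induced by ATF4, stood at 3329 and 3121 normalized counts in the both-high and 186, 196 and 193 in the both-low libraries, and Pycr1, which completes proline synthesis, at 1578 and 1571 normalized counts in the both-high and 94.9, 98.7 and 113 in the both-low libraries. Both genes were also named for their large falls, by the rule that requires libraries apart. Asns, which makes asparagine and whose promoter is shown above, stood at 6169.7 and 6382 normalized counts in the both-high and 1866, 1848 and 1861 in the both-low libraries and fell by 1.76 (SE 0.036). In the MYC low libraries at 200 µM it was 3877, 3979 and 3951, and in the MYC high libraries at 10 µM it was 4377, 4601 and 4341, so each single change left it within 2-fold of the both-high level.

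For 10 members of the list the both-low level lay at least 2-fold below every other group: Trib3, Asns, Slc6a9, Nupr1, Pck2, Gpt2, Shmt2, Aldh18a1, Pycr1 and Eif4ebp1. The share of all genes with that pattern was 0.682%. Nupr1, a small stress-induced chromatin protein, stood at 246 and 279 normalized counts in the both-high and 5.42, 13.3 and 11.5 in the both-low libraries. Shmt2, which makes one-carbon units from serine in mitochondria, fell by 2.85, and the glycine transporter Slc6a9 fell by 3.48, with the caveat of its overlap with Ccdc24. Pck2, the mitochondrial PEP carboxykinase, stood at 1646 and 1628 normalized counts in the both-high and 771, 768 and 799 in the both-low libraries and Gpt2, the mitochondrial alanine transaminase, at 898 and 847 normalized counts in the both-high and 334, 375 and 392 in the both-low libraries. Their log2 differences were −0.05 and −0.04 for MYC low alone, which did not pass, and 0.28 and 0.25 for 10 µM alone, which passed as higher.

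**Figure D2:**
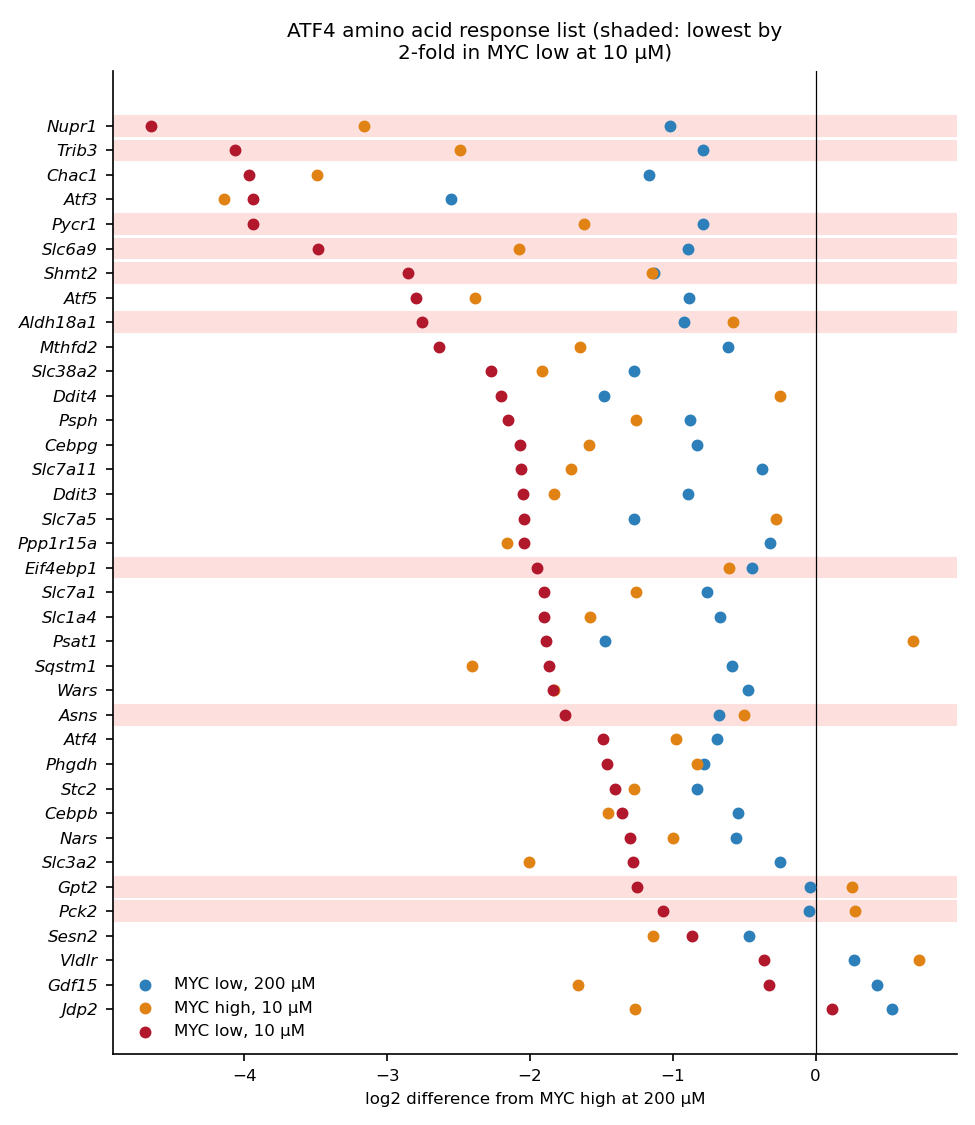
Log2 difference from the both-high libraries of the 37 ATF4 list members (rows) in the 3 other groups (points). Shaded rows mark the 10 genes that were lowest by 2-fold in the both-low libraries; red both-low points lie at or below 0 for all members but Jdp2, at 0.11.

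Of 16 amino acid transporters tested, 9 were lower, 5 higher and 2 did not pass, with a median of −0.83; 8 were lower by at least 2-fold (12.6% of all genes) and 3 higher (16.9%). Slc1a5, a glutamine carrier, stood at 2557 and 2426 normalized counts in the both-high and 225, 241 and 227 in the both-low libraries and was lowest in the both-low libraries by 2-fold. Slc38a2, a carrier of small neutral amino acids, fell by 2.28. Slc7a5, which imports methionine and other large neutral amino acids, stood at 6075 and 5942 normalized counts in the both-high and 1508, 1419 and 1444 in the both-low libraries and fell by 2.04 (SE 0.038, adjusted p = 1.63e-33). In the opposite direction Slc7a7, a carrier of cationic amino acids, rose by 3.52, Slc43a2, a carrier of large neutral amino acids, by 3.24 and the lysosomal carrier Slc36a1 by 1.36; Slc7a7 overlaps Oxa1l on the opposite strand. Aminoacyl-tRNA synthetases, which load tRNAs with amino acids, fell in 19 of 20 cases, with a median of −1.24; Yars (−2.07), Wars (−1.84) and Lars (−1.67) fell, while Qars rose by 0.71. Some of these genes are also on the ATF4 list, so the lists are not independent.

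Genes that MYC is known to drive were lower together with those of ribosome production. Of 43 canonical MYC targets tested, 40 were lower and 2 higher, with a median of −1.29; the exceptions were Ldha, which makes lactate (0.62), and the telomerase gene Tert (0.98), while Hk2 did not pass. Of 60 ribosome biogenesis genes, 58 were lower, Rrp1 rose by 0.25 and Las1l did not pass, with a median of −1.19. Nop56, a core protein of box C/D small nucleolar particles, stood at 7878 and 8011 normalized counts in the both-high and 1212, 1197 and 1175 in the both-low libraries and fell by 2.73 (SE 0.038, adjusted p = 1.60e-37). The groups were far apart for this gene, as they were for Nop58 (−2.58), Nop14 (−2.31), Tsr1 (−2.07), Ddx18 (−1.95) and the nucleolar helicase Ddx21 (−1.67). Nucleolin, Ncl, stood at 32415 and 34235 normalized counts in the both-high and 10474, 10320.5 and 10359.7 in the both-low libraries and fell by 1.68 (SE 0.030). Polr1a and Polr1b, the large subunits of RNA polymerase I, differed by −1.52 and −1.76 and its factor Ubtf by −1.15. Across the list of RNA polymerase I and III genes 20 of 27 were lower and 6 higher, among them Gtf3c1, a subunit of a polymerase III factor, at 0.93.

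Cytosolic ribosomal protein mRNAs were lower in 75 of 78 cases, with a median of −1.06. The medians were −0.59 with MYC low alone and −0.09 with 10 µM alone, and for 73 of the 78 the both-low libraries were the lowest of the 4 groups, against 12.3% of all genes. Together these mRNAs took 6.22% of reads in the both-high libraries, 4.35% with MYC low alone, 6.03% with 10 µM alone and 3.15% in the both-low libraries. Rpl12 stood at 38109 and 36973 normalized counts in the both-high and 7156, 7158 and 6776 in the both-low libraries and fell by 2.42 (SE 0.035). No member reached the both-low extreme by 2-fold, so the pattern was broad and moderate in size. Rpl37a was higher by 0.09, a call lost under 5 of 20 alternative settings, and Rpl7 and Rps10 did not pass. Many of these genes have near-identical pseudogenes, so their single values are uncertain.

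Nop2 (ENSMUSG00000038279), which encodes the methyltransferase named in the series title, stood at 3051 and 3166 normalized counts in the both-high and 1083, 1092 and 1084 in the both-low libraries. The libraries of both groups were tightly placed and apart, and the difference was −1.52 (SE 0.044, adjusted p = 1.52e-27). With MYC low alone it was 1206, 1182 and 1239 and with 10 µM alone 1817, 1719 and 1685; the both-low group lay only 0.15 below the nearest of these on the log2 scale. Among 7 methyltransferases that place 5-methylcytosine on RNA, Nsun2 (−1.71) and Nsun5 (−0.75) were lower too, Nsun4 (1.27) and Trdmt1 (1.13) were higher and 2 did not pass. Genes of the m6A mark on RNA were lower in 16 of 21 cases (median −0.54), with the nuclear reader Ythdc1 at −1.70 and the demethylase Alkbh5 higher at 0.74. DNA and protein methyltransferases were lower in 28 of 36 cases (median −0.50), with the arginine methyltransferases Prmt1 (−1.43) and Prmt3 (−1.37) and the lysine methyltransferase Setd7 (−1.33).

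Genes of methionine handling went in both directions. Mat2a, which makes S-adenosylmethionine, stood at 2769 and 3034 normalized counts in the both-high and 2243, 2175 and 2235 in the both-low libraries, a difference of −0.39 (SE 0.041), and it overlaps an antisense transcript. Its lowest group was MYC high at 10 µM, with 1536, 1531 and 1586, not the both-low group. Ahcy, which removes S-adenosylhomocysteine, stood at 2477 and 2407 normalized counts in the both-high and 1254, 1184 and 1175 in the both-low libraries, a difference of −1.02 (SE 0.044), close to its level with MYC low alone (1135, 1176 and 1118). Mtrr and Mtr, which remake methionine from homocysteine, were lower (−1.63 and −1.10), and Mat2b was higher by 0.46. Of the 9 methionine cycle genes tested, 6 were lower, 2 higher and 1 did not pass (median −0.41). In methionine salvage and polyamine synthesis 10 of 18 were lower and 7 higher (median −0.56), with Odc1, the first enzyme of polyamine synthesis, at −1.29 (SE 0.037), spermidine synthase Srm at −1.79 and the antizyme inhibitor Azin1 at −1.37. The largest difference in that list was a rise, of the second antizyme inhibitor Azin2 from 5.71 and 4.24 to 84.1, 56.0 and 63.5 (3.52, SE 0.28). Kyat3, a transaminase, rose by 2.66 and the polyamine oxidase gene Paox, which overlaps Echs1 on the opposite strand, by 1.69.

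Serine, folate, nucleotide and DNA replication genes were mostly lower. Of 22 serine and folate genes, 15 were lower and 4 higher (median −1.07), with Mthfd2, a mitochondrial folate enzyme, at −2.64 and Phgdh, the first enzyme of serine synthesis, at −1.46. Against the list, Sardh, which oxidises sarcosine, rose from 5.71 and 1.06 to 91.3, 78.7 and 94.4 (4.58, SE 0.35), the folate receptor Folr1 rose by 3.85 and Ggh, which trims folate polyglutamates, by 1.46; Sardh and Folr1 were low in the both-high libraries, and Folr1 overlaps Anapc15 on the opposite strand. Psat1, the next enzyme, stood at 10255 and 10551 normalized counts in the both-high and 2884, 2742 and 2821 in the both-low libraries, whereas with 10 µM alone it was 16893, 16835 and 16351, above the both-high libraries. The order of the groups for Psat1 thus differed from that of Phgdh, which was lower in each single-change group. Of 37 nucleotide synthesis genes 27 were lower and 7 higher (median −0.68): Umps and Uck2 of pyrimidine supply differed by −2.29 and −2.32, and Prps2, which makes phosphoribosyl pyrophosphate, rose by 2.08, as did Adssl1 (1.79), Uckl1 (1.28) and Adk (1.10) by less. Of 41 DNA replication genes 36 were lower (median −1.08), with the licensing factor Cdt1 at 2919 and 2921 normalized counts in the both-high and 492, 466 and 468 in the both-low libraries, lowest by 2-fold in the both-low group, and the helicase subunits Mcm3, Mcm4 and Mcm7 at −2.08, −1.79 and −1.69.

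Mitotic genes did not follow the replication genes. Of 40 tested, 23 were higher, 12 lower and 5 did not pass (median 0.22), and the medians were −0.31 with MYC low alone and 0.67 with 10 µM alone. Cyclin B2, Ccnb2, stood at 214 and 186 normalized counts in the both-high and 1091, 1069 and 1056 in the both-low libraries, a rise of 2.42 (SE 0.062). Its highest group was MYC high at 10 µM, with 1474, 1632 and 1478. Cenpf, Kif20a and Kif23, of the kinetochore and spindle, rose by 1.53, 1.23 and 1.21, while Cdca8 of the chromosomal passenger complex fell by 1.30. In the list of G1 cyclins and CDK inhibitors 12 of 19 were lower and 6 higher: cyclin D1, Ccnd1, rose by 1.77 and the pocket protein gene Rbl2 by 1.84, the CDK inhibitors Cdkn2d (2.43) and Cdkn2c (1.29) rose too, while cyclin E2, Ccne2, (−1.93) and the inhibitor Cdkn1a (−1.01) fell.

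**Figure D3:**
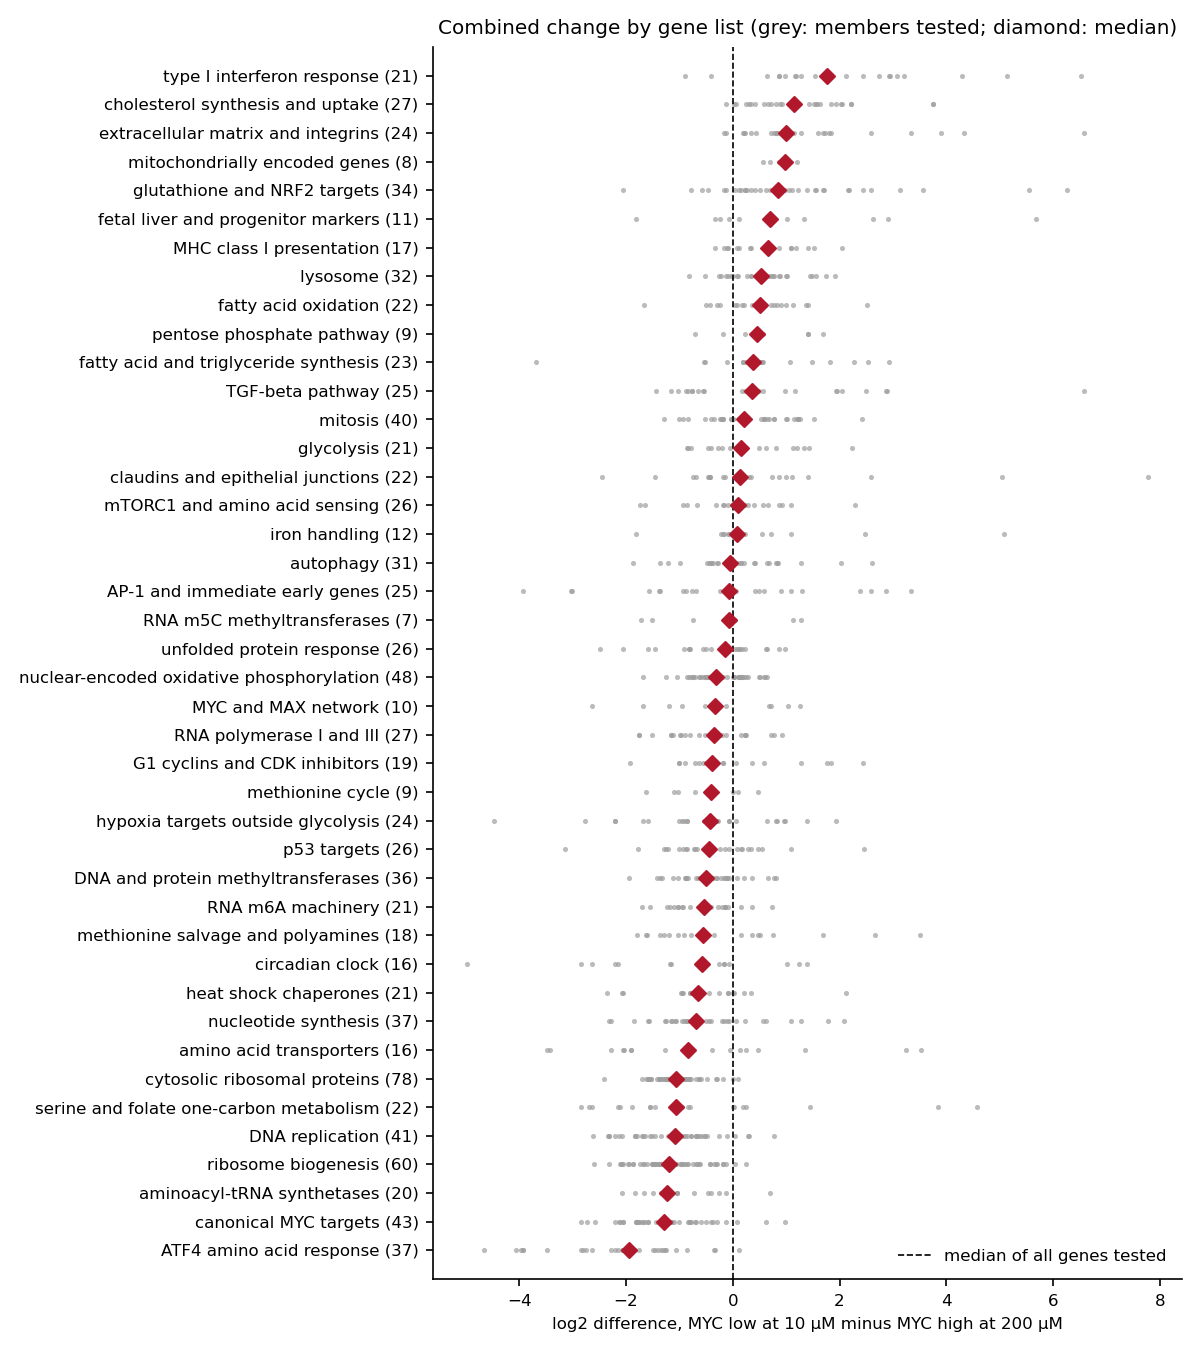
Log2 difference, both-low minus both-high, for members of each list with at least 5 genes tested (grey points) and the list median (diamond); the number of genes tested is in brackets. Medians run from −1.95 for the ATF4 list to 1.76 for the type I interferon list, around an all-gene median of 0.01 (dashed line).

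Genes of the extracellular matrix and its receptors were mostly higher. Of 40 listed, 24 were tested. Of these, 21 were higher and 2 lower, with a median of 0.99, and 12 were higher by at least 2-fold (16.9% of all genes). Genes low in the both-high libraries passed the mean filter only through groups where they were higher. That favours higher calls, to an extent that was not tested. Thbs1, a matrix glycoprotein that can activate latent TGF-β, stood at 67.4 and 85.9 normalized counts in the both-high and 7300.1, 7243 and 7679 in the both-low libraries (SE 0.075, adjusted p = 2.45e-40). It was 1858, 1797 and 1843 with MYC low alone and 316, 255 and 249 with 10 µM alone, so the both-low libraries were far above each single change. Fibronectin, Fn1, stood at 194 and 167 normalized counts in the both-high and 1822, 1787 and 1912 in the both-low libraries, yet was already 1739, 1612 and 1471 with MYC low alone. The collagen genes Col4a5 and Col18a1 rose by 2.58 and 1.60. Itgb6, the integrin subunit whose αvβ6 form activates TGF-β, rose by 4.33 (SE 0.29) from 11.4 and 4.24 to 161, 160.3 and 161.

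The TGF-β pathway list split, with 15 of 25 higher and 10 lower and a median of 0.36, and its members included Thbs1. The receptor Tgfbr2 stood at 1033 and 1033 normalized counts in the both-high and 4193, 4241 and 4302 in the both-low libraries (2.04) and the latent TGF-β binding protein Ltbp3 rose by 1.93. The ligand Tgfb2 was highest by 2-fold in the both-low libraries at low counts, 38.9, 44.6 and 47.6 against 11.4 and 9.55. Id3, an inhibitor of basic helix-loop-helix factors, fell by 1.44, beside the inhibitory Smad7 (−1.02) and Skil (−1.17), but was lower still with 10 µM alone (287, 279.5 and 280.5) than in the both-low libraries (1030.5, 1017 and 1003). Among claudins and other junction genes 11 of 22 were higher and 9 lower, beside 41.0% and 39.6% of all genes. Beside Cldn2, the pooled reads of Cldn1 were at least 19.3-fold higher than the limit of 3 reads over the both-high group, where it had 0, the plakoglobin gene Jup rose by 1.41 and Cldn12 fell by 0.75. The desmosomal cadherin Dsg2 fell further, from 29.7 and 24.4 to 5.42, 2.85 and 4.41 (−2.45, SE 0.40), and the epithelial factor Grhl2 was lower by 2-fold as well (−1.46, not passed without MYC high 200 µM replicate 3).

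Of 41 listed glutathione and NRF2 target genes, which handle oxidants and foreign compounds, 34 were tested. Of these, 27 were higher, 16 of them by at least 2-fold (16.9% of all genes), with a median of 0.84. Ephx1, which hydrolyses epoxides, stood at 225 and 228 normalized counts in the both-high and 2736, 2645 and 2683 in the both-low libraries and rose by 3.56 (SE 0.045). The export pump Abcc3 rose by 3.14, sulfiredoxin Srxn1 by 2.60 and the carbonyl reductase Cbr1 by 2.44. Gsta3 and Aldh3a1 had 1 read each in the both-high libraries, and their pooled ratios were 200 (exact 95% counting interval 35.7 to 7933) and 123 (21.8 to 4860). Against the list, 6 members fell, led by Slc7a11, the cystine carrier that is also an ATF4 target, at −2.06. The pentose phosphate list had 7 of 9 higher, with Pgd at 1.68 and Taldo1 at 1.42.

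Of 40 listed genes that interferon can induce, 21 reached the mean of 10 and were tested. Of these, 18 were higher, 15 by at least 2-fold (16.9% of all genes). The median was 1.76 (1.74 with the low-count members at their bound). Because the filter averages all libraries, genes low in the both-high libraries could be tested only through groups where they were higher. This favours higher calls, to an extent that was not tested, and holds for the matrix, glutathione and marker lists too. Samd9l, an antiviral factor, stood at 42.3 and 53.04 normalized counts in the both-high and 1659, 1714 and 1726 in the both-low libraries, and was 455, 517 and 466 with MYC low alone and 389, 357 and 379.7 with 10 µM alone. It was the only list member highest by 2-fold in the both-low libraries. Ifi27 had 0 reads in the both-high libraries and was at least 55.5-fold higher by the limit of 3 reads over that group. Stat2, which relays the interferon signal, rose by 1.19 and Bst2, which tethers viruses to the cell, by 1.16. Isg20 (−0.89) and Trim25 (−0.41) fell. In MHC class I presentation 11 of 17 genes were higher and 2 lower (median 0.66), with B2m at 1.18, Tapbp at 1.42 and H2-D1, one of several similar genes, at 0.72.

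Lipid genes were mostly higher. Of 27 cholesterol synthesis and uptake genes 24 were higher, 14 by at least 2-fold (16.9% of all genes), with a median of 1.15. The medians were 0.23 with MYC low alone and 1.88 with 10 µM alone. Srebf2, the factor that drives this pathway, rose by 1.56 and Hmgcs1 by 1.94; Lss was lower at −0.13, a call lost under 8 of 20 alternative settings. Of 23 genes of fatty acid and triglyceride synthesis 17 were higher and 4 lower (median 0.38), with the desaturases Scd1 (2.54) and Scd2 (2.92) and Srebf1 (2.27) among the former. The largest difference in the list was a fall, of Angptl8, a secreted regulator of lipoprotein lipase, from 570.1 and 525 to 46.1, 42.7 and 37.0 (−3.68, SE 0.18); it was 52.7, 86.0 and 65.8 with MYC low alone and 44.8, 51.6 and 43.5 with 10 µM alone, and it overlaps Dock6 on the opposite strand. Fatty acid oxidation had 15 of 22 higher and 5 lower (median 0.51), with Acadm at 2.52, and Acot2 lower at −1.67. The both-low libraries were the highest of the 4 groups for 4 of the 27, 5 of the 23 and 5 of the 22 genes, against 1551 of all 12909. Of 32 lysosome genes 22 were higher and 4 lower, with a median of 0.54; the protease Ctsl rose by 1.49, the sialidase Neu1 by 1.74 and the acid lipase Lipa by 1.91. The lysosome medians were 0.76 with MYC low alone and −0.23 with 10 µM alone.

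Glycolysis did not reach an extreme in the both-low cells. Its genes took 0.907% of reads in the both-high, 3.08% in the MYC high 10 µM and 0.949% in the both-low libraries. Pgk1 showed this most plainly: it stood at 12909 and 13574 normalized counts in the both-high and 7824, 7766 and 7565 in the both-low libraries, and at 47949.6, 50356 and 48067 with 10 µM alone. Of 21 genes 12 were higher and 6 lower (median 0.15), none of them beyond the 3 other groups, with the glucose carrier Slc2a1 at 1.34 and Pfkm at 1.42. Of 24 genes listed for the hypoxia response outside glycolysis, 14 were lower (median −0.42), though their median was 0.88 with 10 µM alone. The carbonic anhydrase Car12 (1.94) rose, as did the prolyl hydroxylase Egln2 (1.39), a regulator of that response. Vegfa, the vascular growth factor, stood at 2785 and 2731 normalized counts in the both-high and 434, 364 and 423 in the both-low libraries, and Ero1l, an oxidase of protein folding, at 3171 and 3238 normalized counts in the both-high and 1034, 1083 and 1084 in the both-low libraries but at 9906, 10444 and 10199 with 10 µM alone. Vegfa, Ero1l and Stbd1 were lowest by 2-fold in the both-low libraries.

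Mitochondrial genes encoded in the nucleus and in the organelle moved apart. Of 48 nuclear-encoded oxidative phosphorylation genes 28 were lower and 14 higher (median −0.32), with Uqcrq at −1.68 and cytochrome c, Cycs, at −1.26. Of 8 mitochondrially encoded genes 7 were higher (median 0.97), with mt-Nd2 at 1.20 and mt-Nd1 at 1.02, beside the rise in their share of reads given above. Their median with MYC low alone was 1.05.

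Stress, clock and signalling lists were mixed. Of 26 p53 targets 16 were lower (median −0.45); Gadd45a, a growth arrest gene, stood at 1500.1 and 1445 normalized counts in the both-high and 184, 174 and 140.2 in the both-low libraries, and Mdm2, which degrades p53, fell by 1.78, while Fas rose by 2.46. Of 26 unfolded protein response genes 14 were lower and 9 higher (median −0.14), with the chaperone Hspa5 at −1.47, Herpud1 at −2.48 and the highest member at 0.98. Heat shock chaperones were lower in 16 of 21 cases (median −0.64); the mitochondrial Hspa9 fell by 2.05 and Cryab rose by 2.11. Of 25 immediate early genes 8 were higher and 11 lower, shares near those of all genes (41.0% and 39.6%): Fosl1, which overlaps Ccdc85b, and Ier5 fell (−3.03 and −3.01), and Egr1 (3.33), Ccn2 (2.87), Fos (2.59), Ccn1 (2.38), Dusp6 (1.29) and Btg2 (1.09) rose. Of 16 clock genes 11 were lower (median −0.58), with the repressors Nr1d1 at −2.85, Cry1 at −2.63 and Nfil3 at −2.15, while Dbp (1.39), Rora (1.24) and Per3 (1.02) rose. Of 12 iron genes 6 were higher, with the exporter Slc40a1 at 2.48, and the transferrin receptor Tfrc fell by 1.82. The mTORC1 list had 10 higher, 7 lower and 9 not passed of 26, where 41.0% and 39.6% of all genes were higher and lower, with Sesn3 at 2.28 and Akt1s1 at −1.64.

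Few cell type markers were expressed enough to be tested. Of 30 hepatocyte markers 4 were tested, 3 higher and 1 lower, with the urea cycle enzyme Ass1 at 1.88, the liver factor Cebpa at 2.37 and Apoh, a plasma protein, at 0.59; the call of Apoh (adjusted p = 0.0488) was lost under 13 of 19 alternative settings. Of 11 fetal liver and progenitor markers 6 were higher, 1 lower and 4 did not pass, with osteopontin, Spp1, at 2.63 and the bile duct keratin Krt19 at 2.90, and the chromatin protein Hmga2 lower at −1.82; Afp stood at 159 and 149 normalized counts in the both-high and 118, 127 and 146 in the both-low libraries and did not pass (−0.24, adjusted p = 0.0792). Krt7, at 3 reads in the both-high libraries, had a pooled ratio of 62.7 (exact 95% counting interval 21.3 to 306) and was highest by 2-fold in the both-low libraries. Of 20 fibroblast markers 4 were tested and 3 were higher, with Vim at 1.06, and none of 11 endothelial markers was tested. Of the defining fibroblast markers, Dcn was at 0 in all libraries. Pdgfrb reached at most 1.06, Acta2 2.03, Col1a2 9.04 and Col1a1 24.3 normalized counts. Of 15 macrophage and leukocyte markers 3 were tested: Csf1r (1.59) and Cd68 (2.82) were higher and Cd14 (0.02) did not pass. Their summed level was 644 to 674 normalized counts in the both-high and 1302 to 1413 normalized counts in the both-low libraries, with Ptprc at 0 throughout.

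To find genes whose extreme needed both changes, the both-low libraries were required to differ in 1 direction from each of the 3 other groups at an adjusted p under 0.05 and to lie beyond all 8 other libraries. This held for 3139 genes (24.3%), 1551 as highest and 1588 as lowest (12.3%). At least 2-fold beyond the nearest group were 131 highest (1.01%) and 88 lowest (0.682%). By the same rule the both-high group had 360 highest (2.79%) and 773 lowest genes (5.99%), MYC high at 10 µM had 246 (1.91%) and 191 (1.48%), and MYC low at 200 µM had 15 (0.116%) and 28 (0.217%). Extremes by 2-fold in either direction made up 1.7% of genes for the both-low and 8.78% for the both-high group. Genes close to the 2-fold limit were Gcnt1 (1.005) inside and Tspan8 (0.998) outside for the highest, and Trim46 (1.01) inside and Mthfd2 (0.990) outside for the lowest, as log2 distances to the nearest group.

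**Figure D4:**
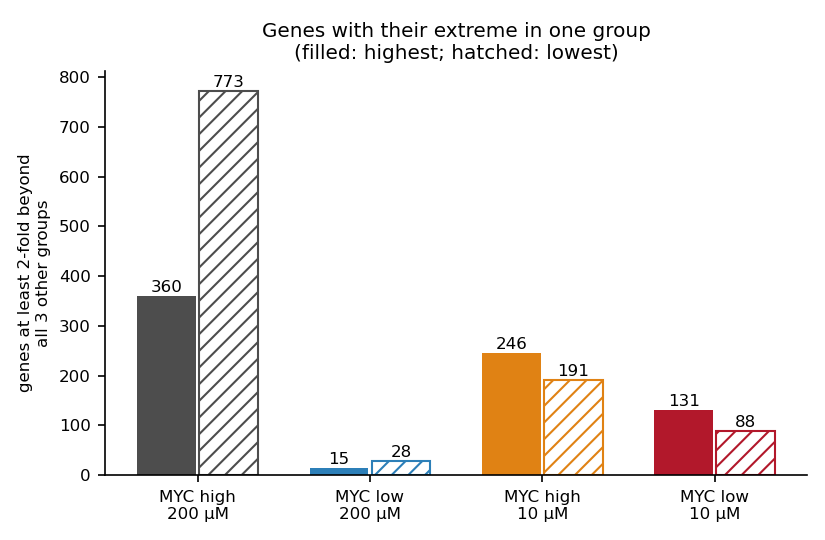
Number of genes, of 12909 tested, whose level in 1 group lay at least 2-fold beyond all 3 other groups (filled bars highest, hatched bars lowest). The both-low group had 131 and 88, between MYC low at 200 µM (15 and 28) and the both-high group (360 and 773).

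Most of the 131 highest genes had already risen with a single change. MYC low alone passed as higher for 113 (37.6% of all genes), 105 of them by at least 2-fold (12.1%). The 10 µM change alone passed as higher for 99 (37.9%), 87 of them by at least 2-fold (13.0%). Their median log2 differences from the both-high libraries were 2.34, 1.71 and 4.10 for MYC low alone, 10 µM alone and both; the last was 3.65 with the 48 members of 3 reads or fewer in a group set to their bound. MYC low at 200 µM was the nearest group for 88 and MYC high at 10 µM for 39. With 55 of the 131 at a mean of at least 50, many were low-count genes.

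Ranked by their distance, Ly6c1 led the highest genes at 517, 559 and 556 in the both-low libraries against 69.2, 59.4 and 78.4 with MYC low alone, a distance of 2.97. Padi3, which converts arginine residues to citrulline, stood at 420.3, 454 and 436, against 73.3, 48.6 and 70.9 with 10 µM alone and 10.3 and 19.1 in the both-high libraries. The rule for the extreme requires that the both-low libraries lie beyond all others, so no overlap was possible for either gene. Ccdc80, a secreted matrix protein, stood at 212, 176 and 198, against 19.4, 35.4 and 32.4 with 10 µM alone, while MYC low alone (11.7, 11.3 and 9.68) was near the both-high libraries (11.4 and 9.55). Rnf43, a ubiquitin ligase that removes Wnt receptors, stood at 140.1, 165 and 143, and its nearest group was MYC low alone at 23.4, 28.7 and 31.9. Cldn2 (2.61), Thbs1 (2.01), Itgb6 (1.97), the calprotectin subunit S100a8 (1.94), Prl2c5 (2.05) and Gm2115 (2.01) completed the 10 with the largest distance. Prl2c5 belongs to a family of similar genes, and Gm2115 had 1 read in the both-high libraries (pooled ratio 387, exact 95% counting interval 69.3 to 15322).

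The 88 lowest genes had smaller single changes. The mean filter affects this contrast, since these genes had to be expressed in other groups. MYC low alone passed as lower for 67 (36.8% of all genes), 37 by at least 2-fold (6.79%). The 10 µM change alone passed as lower for 61 (37.9%), 40 by at least 2-fold (9.18%). The medians were −0.91, −0.83 and −2.59 for MYC low alone, 10 µM alone and both. Beside the 10 members of the ATF4 list, the 88 genes included 9 members of other lists. Hrk led by distance (3.03), with 65.3, 80.8 and 82.3 for MYC low alone and 56.0, 37.5 and 53.7 for 10 µM alone, both well below the both-high 577 and 532. Ciart (2.66) and Pycr1 (2.32) followed. Stbd1 was 265, 307 and 279 with 10 µM alone, at the both-high level, 55.6, 62.4 and 59.0 with MYC low alone, and 9.94, 11.4 and 13.2 in the both-low libraries (2.27). Reep6, of the endoplasmic reticulum, had the same order of groups, 765, 759 and 751, 227, 186 and 163 and 46.1, 59.8 and 63.5 (1.75). Ccdc24 (2.11), Aldh18a1 (1.84), Ldlrad3 (1.81), Nexmif (1.75) and E230016M11Rik (1.73), which overlaps Gadd45a, completed the 10.

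**Figure D5:**
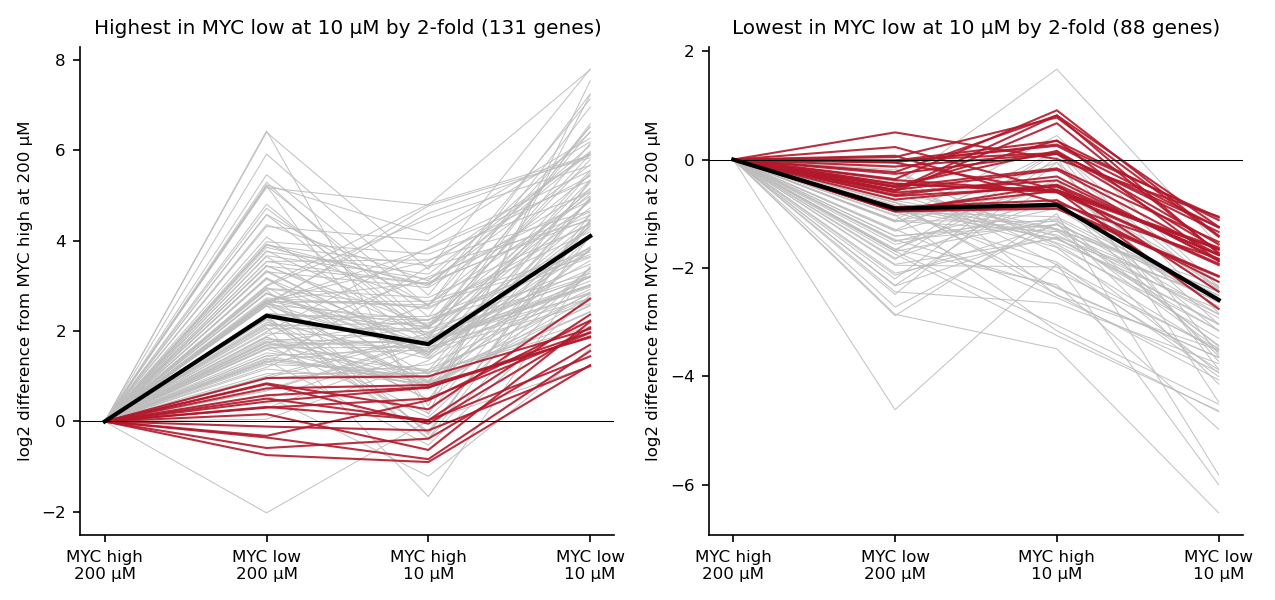
Log2 difference from the both-high libraries in the 4 groups for the 131 genes highest and the 88 lowest by 2-fold in the both-low libraries; each line joins the group means of 1 gene, the black line is the median, and red lines mark genes whose single changes were each under 2-fold (15 and 31). The median reached 2.34 and 1.71 with a single change and 4.10 with both on the left, and −0.91, −0.83 and −2.59 on the right.

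A narrower set moved by 2-fold only with both changes, each single change being under 2-fold: 15 highest (0.116%) and 31 lowest genes (0.24%). No single change passed the test at all for 6 of the 15 and 7 of the 31. Because the rule uses the 4 group means, it favours genes that depart from the sum of the single changes, and the interaction (combined difference minus the sum of the single ones) is given as a description; it passed above the sum for 12 of the 15 (29.4% of all genes) and below it for 28 of the 31 (31.0%). Only 5 of the 15 had a mean of at least 50, against 22 of the 31.

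Those 5 highest genes were Prl2c5, Gm14866, Gdpd2, Axin2 and Il5ra. Axin2, a feedback inhibitor and common readout of Wnt signalling, stood at 120.2, 139 and 129 in the both-low libraries, 34.3 and 44.6 in the both-high, 25.4, 27.6 and 24.2 with MYC low alone and 34.6, 24.3 and 31.4 with 10 µM alone. Its mean was thus below the both-high mean after each single change and above it after both (combined 1.70, SE 0.21; interaction 2.66). Gdpd2, a glycerophosphodiester phosphodiesterase, stood at 573, 528 and 479 against 106 and 96.5, with 144, 144 and 144 and 96.8, 114 and 99.2 after the single changes (interaction 1.83). Gm14866 (interaction 1.60) lies opposite Gdpd2, and the reads of the pair cannot be told apart. Prl2c5, of the prolactin family, stood at 217, 207 and 216 against 57.1 and 36.1 (interaction 2.68). Il5ra, an interleukin-5 receptor subunit, stood at 129, 142 and 145 against 27.4 and 43.5 (interaction 0.78).

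Among the 31 lowest genes Aldh18a1, which makes the precursor of proline from glutamate, stood at 795, 779 and 807 in the both-low and 5218 and 5512 in the both-high libraries. It was 2770.0, 2889.8 and 2846 with MYC low alone and 3533, 3615 and 3627 with 10 µM alone, and its combined difference was −2.75 (SE 0.039, interaction −1.26). All 3 both-low libraries lay below the 8 others, as the rule for this set requires, and as in Pycr1 of the same route. Hmga1, a chromatin architecture protein with a near-identical copy, stood at 527, 523 and 488 against 2782 and 2774 (interaction −1.01). Eif4ebp1, a repressor of translation initiation and an ATF4 target, stood at 1096, 1027 and 1048 against 4069.7 and 4084 (interaction −0.89). Areg, a ligand of the EGF receptor, stood at 118, 109 and 116 against 429.6 and 445 (interaction −0.96).

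Rasgef1b, a Ras exchange factor, showed the least change in the single groups: it was 181 and 178 in the both-high libraries, 161, 197 and 174 with MYC low alone and 178, 209.6 and 199 with 10 µM alone, and 58.8, 75.0 and 79.4 in the both-low libraries (combined −1.34, SE 0.13; interaction −1.44). Ifi204, of a cluster of similar genes, was 32.5, 27.5 and 45.0 against 130.2 and 127 (interaction −1.72). With 10 µM alone it was 156, 188 and 153. The integrin subunit Itgb7 was 290.2, 249 and 246 against 1244 and 1256 (interaction −0.63). The gene 2810429I04Rik was 22.6, 19.9 and 28.2 against 91.4 and 80.6 (interaction −0.84). Deptor, which inhibits mTOR, was 49.7, 56.9 and 60.0 against 186 and 188, and higher with 10 µM alone at 337, 314 and 339. Asns, Pck2 and Gpt2, described with the ATF4 list, belong to this set too.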

How the data were processed

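Polyadenylated RNA of EC4 cells was sequenced in 11 libraries. The submitters deposited 1 signal value per gene and library, described in the labels as normalized counts; the deposited signal values were whole reads divided by a size factor, and 100% of values gave whole reads within 0.001. Build GRCm39 and the tools STAR, HTSeq, DESeq2, fastp, FastQC and SAMtools appear in the submitters' processing notes, without versions; the annotation and whether counting used strand were not given in the sources used here. Since values are relative to each library's scaling, a change in total RNA per cell would not show. Columns of other samples numbered 0. Symbols came from GENCODE, which named 52083 of 55416 identifiers and 12857 of the 12909 tested.

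Libraries were grouped by title. Genes with a mean of at least 10 were compared as log2 of value plus 1, a scale that understates changes of low genes, with limma 3.58.1 in R 4.3.3. The fit had 1 mean per group over all 11 libraries, variance moderated with a mean trend (residual degrees of freedom 7, prior 29.0) and two-sided p adjusted over all genes by Benjamini-Hochberg, at 0.05. The spread is pooled, so the 2 both-high libraries are assumed to vary like the others. Replicates correlated at 0.993 or more and differed beyond counting noise (chi-square per gene 1.40 to 2.71). Intervals and the limit of 3 reads for a count of 0 cover counting error only. Fits were tested on simulated data. Alternatives used pseudocounts of 0.5 and 10, other filters, TMM scaling, a replicate block, only the 2 groups, each library left out, other fold limits, and edgeR 4.0.16 and DESeq2 1.42.0 on recovered reads.

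Genes are named by rule: those fixed by name; the 12 largest differences in each direction at a mean of at least 100 with libraries apart; the 10 largest both-low distances in each direction and the 8 among genes with single changes under 2-fold, at a mean of at least 50; and, of each list, the 4 members with the smallest adjusted p, those called against the sign of its median (in the text, mainly those by at least 2-fold) and those at the both-low extreme by 2-fold. Gcnt1, Tspan8, Trim46 and the few list members given as not passed were named after their values were seen. Of the genes named against their list, Mlx, Mxd4, Uckl1, Cdca8, Ccnd1, Rbl2, Ccn2, Egln2, Per3, Dbp, Akt1s1, Slc43a2 and Hmga2 also overlap another gene, so their reads may be shared. Members and lists were chosen with earlier results of these data known. Some genes that this rule names are not reported here.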

Additional observations from a re-analysis of the deposited data

Results flagged for a closer look

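The response to 10 µM methionine differed between MYC low and MYC high cells for many genes, by limma's test of the interaction at an adjusted p under 0.05. The combined difference was above the sum of the single changes for 3798 genes (29.4%) and below it for 4000 (31.0%).

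Of the genes named because only both changes moved them by 2-fold, the interaction on the log2 scale was 2.68 for Prl2c5, 2.66 for Axin2, 1.83 for Gdpd2, 1.60 for Gm14866 and 0.78 for Il5ra among the highest. Among the lowest it was −1.72 for Ifi204, −1.44 for Rasgef1b, −1.26 for Aldh18a1, −1.01 for Hmga1, −0.96 for Areg, −0.89 for Eif4ebp1, −0.84 for 2810429I04Rik and −0.63 for Itgb7. Each passed the test, and each was chosen by a rule that uses the same group means, so these values describe the selection.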

How the results depend on the processing

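The 398 genes that the rule for named genes takes kept their direction under every alternative run, and 31 of them lost their call under at least 1. Among those printed, Apoh lost it under 13 of 19 alternatives (adjusted p 0.0242 to 0.220), Lss under 8 of 20 (0.0295 to 0.139), Rpl37a under 5 of 20 (0.0153 to 0.365) and Grhl2 under 1 of 19; Afp passed only without MYC low 10 µM replicate 3. The counts of genes higher and lower in the combined change were 5350 and 5094 by edgeR and 4988 and 4929 by DESeq2, within 1.5 times of 5297 and 5109. The counts of both-low extremes by 2-fold depended on low counts and limits, through the alternatives' own construction. With a pseudocount of 10 the lowest fell to 49, and those with single changes under 2-fold were 32 highest and 18 lowest. Without a filter there were 247 highest and 93 with small single changes; at a mean of at least 50 these were 55 and 5. With 1.5-fold past the nearest group there were 370 highest and 312 lowest, of which 88 and 170 had small single changes; with single changes under 1.5-fold 5 and 13 remained. Leaving out 1 library at a time gave 4973 to 5320 genes higher and 4765 to 5138 lower, 2177 to 2208 and 1620 to 1629 by 2-fold, 1424 to 1559 highest and 1541 to 1608 lowest, 126 to 135 and 84 to 105 by 2-fold, and 12 to 16 and 28 to 40 with small single changes. The labels do not say whether replicate numbers pair the libraries. As deviations from their group means, same-numbered libraries correlated at −0.046 to 0.039 and differently numbered ones at −0.054 to 0.056. With 2 or 3 libraries per group the deviations within a group depend on each other, so this check cannot exclude pairing. A replicate block gave 5224 higher, 5070 lower, 131 highest and 88 lowest by 2-fold. Low counts limit 96 tested genes that had 3 reads or fewer in a group compared.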

Other observations

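Of 10 genes tested in the MAX network, Myc among them, 6 were lower in the both-low than in the both-high libraries and 4 higher, beside 39.6% and 41.0% of all genes, with a median log2 difference of −0.33. Mxi1, which competes with MYC for MAX, stood at 1116 and 1143 normalized counts in the both-high and 359.8, 355 and 338 in the both-low libraries (log2 difference −1.68) but at 2021, 2114 and 2122 with 10 µM alone. Mnt, another MAX partner, fell by 1.20 and Mxd4 rose by 1.25 and Mlx by 1.04.

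Of 31 autophagy genes 13 were higher and 13 lower (median −0.05), near the shares of all genes (41.0% and 39.6%). Sqstm1, the cargo receptor p62 and a member of the ATF4 list, stood at 54187 and 55074 normalized counts in the both-high and 15131, 14947 and 14948 in the both-low libraries, a difference of −1.86. Atg4a, a protease of the conjugation step, rose by 2.61, the kinase gene Ulk2 by 2.02 and Wipi1 by 1.27.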
